A study of Mus musculus with 12 samples.

Results

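The transcripts described here lie next to each other in the deposited transcript tables, and their summed level was higher in both Chd8 mutants than in wild-type cells. The difference lay in the later rows, since the members before row 11049 were not raised as a set in both mutants. The stretch runs from uc007oit.1 through uc007phj.1, data rows 10798 to 11578, with 4 transcripts of these 781 rows left out of it. It holds 777 of the 55419 transcripts in the files, or 1.40%. The stretch was chosen because neighbouring rows were raised alike in both mutants in the comparisons of HET and KO cells with WT cells. The likeness of HET and KO is part of the choice, and the values of those comparisons are given as a description, with no test. The files do not state what the row order follows and do not pair the identifiers with gene names. The words neighbour, before and after therefore refer to rows only, and no gene name, genome position or sequence is given.

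RNA was sequenced from mouse neural progenitor cells (NPC) derived from embryonic stem cells, and from embryonic stem cells (ESC) kept in 2i medium. For each cell type the labels give Chd8 KO cells (CHD8-/-), HET cells (CHD8+/-) and WT cells, 2 libraries to a group, which makes 6 groups and 12 libraries. CHD8, a chromodomain helicase, uses ATP to remodel nucleosomes, and it is known from people with autism who carry a disrupted copy of the gene. Embryonic stem cells in 2i, a medium with a pair of kinase inhibitors, are held in a naive pluripotent state, while neural progenitors are dividing cells that can form neurons and glia. The series asks how the dose of CHD8 affects transcription in these states. Neither the number of lines per genotype nor the origin of the replicates, from separate cultures or not, is given in the labels, so p-values reflect library-to-library spread that may be technical.

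Library totals ran from 9062447 to 14766212 estimated counts. In ESC the WT libraries were the shallowest, at 9062447 and 9840544, whereas in NPC they were the deepest, at 12392099 and 13150215. The genotype labels and the cell types were not checked against Chd8 or marker genes, because 0 identifiers matched the gene tables used here.

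Many members of the stretch gave no counts. In all, 265 of the 777 members (34.1%) had no count in any library, against 19.6% of all transcripts, and 298 to 383 members had counts in a given library. The low-count filter of the edgeR test left 301 members (38.7%). Measured members, the name used below for 196 of the 777, had a mean of at least 2 CPM (counts scaled to library size, with TMM factors) over the 12 libraries, and 90 had at least 10 CPM. A filter that uses mutant libraries can favour transcripts that are high in them. The deposited TPM, which accounts for transcript length, averaged at least 1 for 32.4% of the members, against 40.4% of all transcripts.

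Short transcripts were common in the stretch. Of the members, 28.3% were at most 300 bases long, against 7.92% of the other transcripts, and the median length was 1560 bases in members and 2149 bases in the others. An unbroken run of 129 short members, with a median of 38 bases, filled rows 10870 to 10998 and had no count in any library. The next run, 14 members in rows 11002 to 11015, also had none. Among the 26 short members of rows 11348 to 11373, with a median of 80 bases, 21 had counts, but very few.

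**Figure D1:**
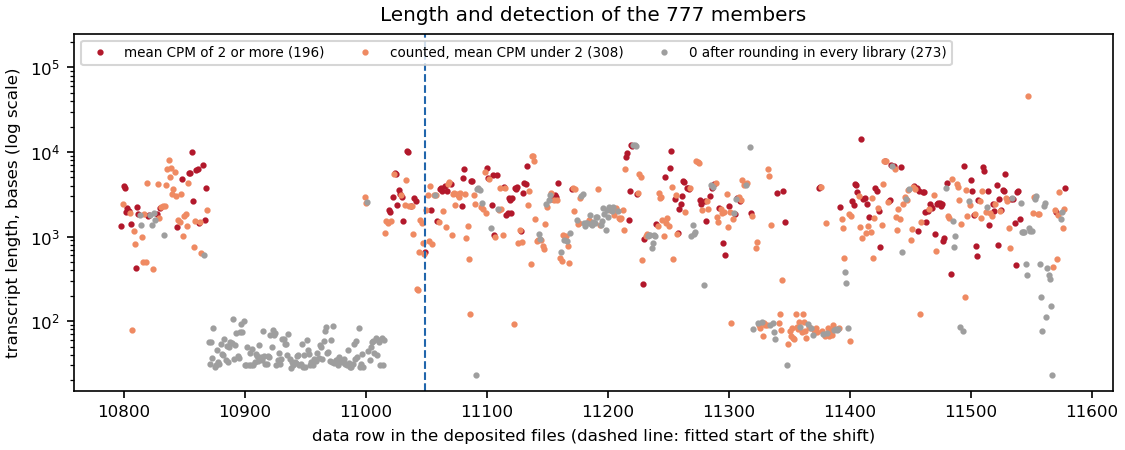
Length in bases (log scale) of each of the 777 members by data row, with measured members, members counted at a lower level and members at 0 after rounding in separate colours; 8 members at 0 after rounding had a trace of estimated counts. The block of very short members with no counts lies before row 11049, which the dashed line marks as the fitted start of the shift.

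The stretch as a whole took a larger share of the counts in mutant libraries of both cell types. Members held 1.0% and 0.928% of the counts in the KO NPC libraries, 0.842% and 0.898% in HET NPC, and 0.574% and 0.622% in WT NPC. In ESC they held 1.08% and 0.902% in KO, 1.02% and 1.01% in HET, and 0.671% and 0.644% in WT. No mutant library overlapped the WT libraries of its cell type. Summed CPM over all members was 1.71-fold in KO NPC and 1.51-fold in HET NPC relative to WT NPC, and 1.70-fold in KO ESC and 1.64-fold in HET ESC relative to WT ESC. The 5 most abundant members held 53.7% of the summed CPM, and without them the ratios were 1.67, 1.45, 1.67 and 1.49 in the same order. In bulk libraries such as these, more cells that contain an RNA and more RNA per cell cannot be told apart.

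The typical measured member was about as much higher in HET cells as in KO cells, a likeness used to choose the stretch. A median shift is the median over measured members of the log2 difference in CPM (prior count 2), minus the same median over all 19921 transcripts of at least 2 CPM. It was 0.77 for KO against WT and 0.66 for HET against WT in NPC, which corresponds to 1.70-fold and 1.58-fold. In ESC it was 0.74 for KO and 0.68 for HET, or 1.67-fold and 1.60-fold. Selecting members by their level in the WT libraries instead gave 0.74 and 0.60 in NPC and 0.75 and 0.62 in ESC for KO and HET. The cell types share no library, but HET and KO of a cell type share their WT libraries.

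Each mutant library, all of them among those that chose the stretch, stood above the WT libraries of its cell type. Measured from the mean of the WT libraries of the same cell type, the KO NPC libraries stood at 0.84 and 0.81, the HET NPC libraries at 0.60 and 0.71, and the WT NPC libraries at -0.04 and 0.04. The KO ESC libraries stood at 0.78 and 0.75, the HET ESC libraries at 0.62 and 0.69, and the WT ESC libraries at 0.04 and -0.04. The group means were 0.82 ± 0.02 in KO NPC, 0.66 ± 0.08 in HET NPC, 0.77 ± 0.03 in KO ESC and 0.66 ± 0.05 in HET ESC, where the WT libraries had SDs of 0.06 in NPC and 0.05 in ESC (SD, n = 2 in each). Within a group, the median difference between its 2 libraries was between -0.09 and 0.07 over the measured members. KO lay above HET in both cell types by little. The median of KO against HET was 0.15 in NPC and 0.09 in ESC, and in each cell type the lower KO library lay above the higher HET library. From row 11049 on it was 0.15 in NPC and 0.06 in ESC, and over the 41 measured members before that row it was 0.04 in NPC and 0.27 in ESC.

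The shift did not cover the whole stretch. A fit of a step with 2 change points along the rows, made on the mean of the 4 mutant-against-WT comparisons after the data had been seen, placed the start at row 11049, where the preceding measured transcript is in row 11041. It placed the end at row 11610, beyond the last member in row 11578, and the next measured transcript is in row 11612. The fitted levels were -0.08 before, 0.87 inside and 0.03 after. The 4 transcripts left out of the stretch were part of this fit and lie inside the limits. Fitted separately, KO NPC, HET NPC and HET ESC each started at row 11049 and KO ESC at row 11037. The end was row 11610 in KO NPC, HET NPC and KO ESC, and row 11606 in HET ESC. A minimum of 5 or 10 CPM moved the start to row 11054 and left the end in row 11610.

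**Figure D2:**
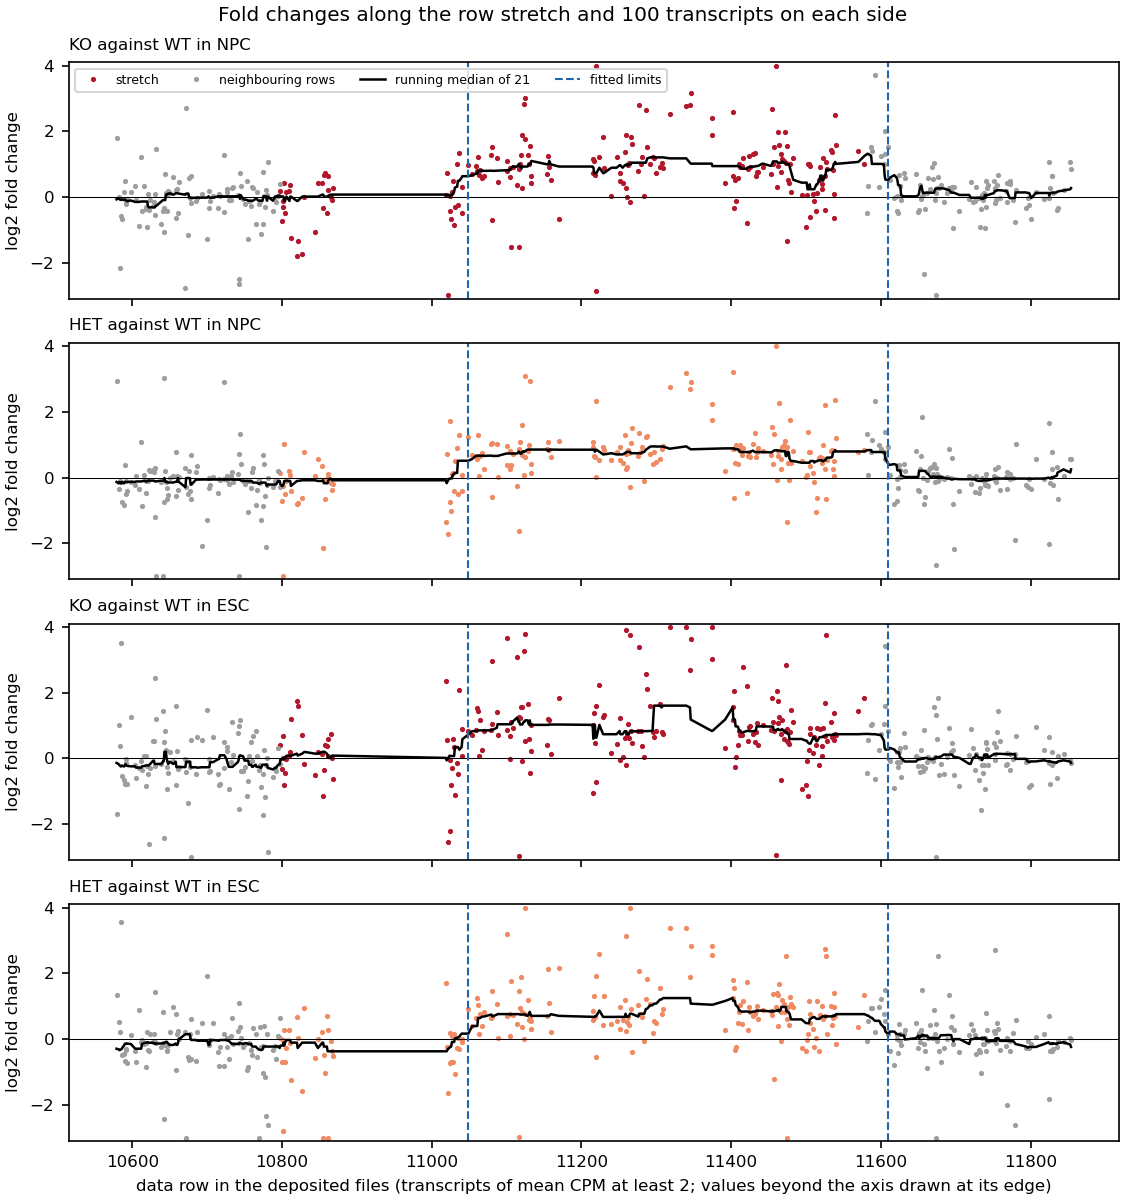
Log2 fold change in CPM of each transcript of at least 2 CPM by data row, for the stretch (coloured) and 100 transcripts on each side (grey), for KO and HET against WT in NPC and ESC. The black line is the running median of 21 transcripts and the dashed lines are the fitted limits, rows 11049 and 11610. The mean of the 4 comparisons had fitted levels of -0.08 before them, 0.87 between them and 0.03 after them. The 4 transcripts left out of the stretch were part of the fit.

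The first 251 members, in rows before 11049, were not raised as a set in both mutants. Among them 150 (59.8%) had no count in any library and 41 were measured. Their median shift was 0.01 for KO and -0.10 for HET in NPC, and 0.08 for KO and -0.23 for HET in ESC. The libraries stood at -0.02 and -0.13 in KO NPC, 0.02 and -0.26 in HET NPC, and 0.01 and -0.01 in WT NPC. They stood at 0.09 and 0.07 in KO ESC, -0.24 and -0.18 in HET ESC, and -0.02 and 0.02 in WT ESC. Both HET ESC libraries thus lay below WT and both KO ESC libraries above it, while the HET NPC libraries lay on either side of WT. In HET ESC 15 of the 41 lay below WT without overlap (36.6%, against 18.6% of all transcripts) and 5 above it (12.2% against 20.1%). The same libraries chose the stretch and placed row 11049, so nothing is read from these counts. Summed CPM of these members was 1.09-fold in KO NPC, 0.983-fold in HET NPC, 1.02-fold in KO ESC and 0.949-fold in HET ESC relative to WT.

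The other 526 members, from row 11049 on, carried the shift. Their 155 measured members had a median shift of 0.92 in KO NPC, 0.77 in HET NPC, 0.83 in KO ESC and 0.77 in HET ESC, or 1.90-fold, 1.70-fold, 1.78-fold and 1.71-fold. The libraries stood at 0.94 and 0.91 in KO NPC, 0.69 and 0.81 in HET NPC, and -0.06 and 0.06 in WT NPC. They stood at 0.85 and 0.87 in KO ESC, 0.77 and 0.84 in HET ESC, and 0.05 and -0.05 in WT ESC. Every mutant library lay above the WT libraries of its cell type, but the same libraries were used to choose the stretch and to fit row 11049. Since the start was chosen for its difference, the contrast with the first 251 members is a description of where the shift lies.

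**Figure D3:**
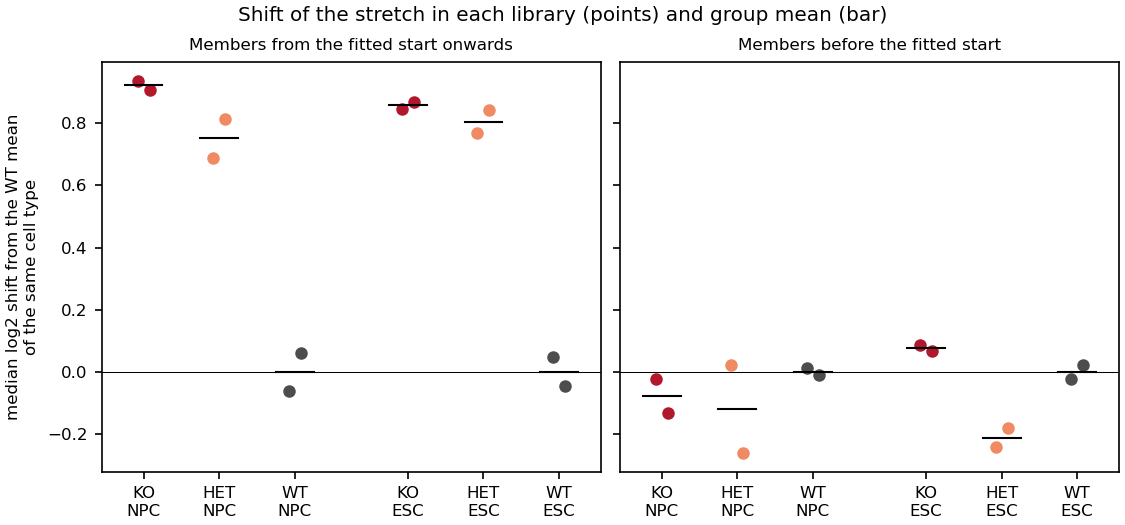
Median log2 shift of measured members from the WT mean of the same cell type in each library, for members from row 11049 on (left, 155 members) and before it (right, 41 members); points are libraries and bars are group means. On the left the mutant libraries lie between 0.69 and 0.94 and the WT libraries between -0.06 and 0.06; on the right all libraries lie between -0.26 and 0.09.

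Inside the limits the shift was at a similar level over most of the rows and lower in rows 11474 to 11519. In successive windows of 20 measured members, the mean over the 4 comparisons was -0.08 in rows 10798 to 10857 and -0.05 in rows 10860 to 11040. It was 0.76 in rows 11041 to 11106 and stayed between 0.76 and 0.94 over the 6 windows that end in row 11473. Rows 11474 to 11519 were lower, at 0.43, and the last 16 measured members, in rows 11521 to 11578, returned to 0.76. The lower window was at 0.29 in KO NPC, 0.45 in HET NPC, 0.52 in KO ESC and 0.45 in HET ESC, below the windows on either side in each.

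The chosen limits of the stretch did not match the edges of the shift. The 5 measured transcripts on the inner side of the first member's limit had a mean over the 4 comparisons of -1.81 to 0.23, with a median of -0.10, and the 5 outside had a median of -0.14. At the last member the 5 inside had a median of 1.0 and the 5 outside one of 1.06, so the shift ran on past row 11578. At the fitted start the medians were 0.99 inside and 0.13 outside, and at the fitted end 1.01 inside and -0.32 outside. The fit placed both rows where these same values step, so a jump there was built in. Outside the fitted start, uc007orp.2 in row 11037 was at 1.11. Over the 100 transcripts before the first member the median shift, averaged over the 4 comparisons, was -0.12. Over the 100 after the last member it was 0.07. The first 20 of these, in rows 11582 to 11627, stood at 0.33, and the following windows of 20 at 0.11, 0.04, 0.07 and -0.04.

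Most measured members from row 11049 on took part, though their shifts differed in size. Above 0 in all 4 comparisons were 116 of the 155 measured members there (74.8%), against 4 of the 41 before that row and 17.5% of all transcripts. Of the 196 measured members, 71 (36.2%) had every one of the 8 mutant libraries above both WT libraries of its cell type, where 3.33% of all transcripts did. All 71 lay from row 11049 on. The opposite pattern was seen in 3 members, or 1.53%, against 3.13% of all transcripts. Groups that did not overlap, with the mutant higher, were found in 121 measured members for KO NPC (26.5% of all transcripts), 121 for HET NPC (21.2%), 127 for KO ESC (25.6%) and 110 for HET ESC (20.1%). With the mutant lower they were found in 20 (27.2%), 16 (22.7%), 12 (22.6%) and 20 (18.6%) in the same order. These comparisons chose the stretch, so nothing is read from the counts. Isoforms of a gene can share reads, so members are not independent units.

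The most abundant members had larger median shifts than the least abundant ones in each of the 4 comparisons, and less scatter. Among the 53 most abundant measured members from row 11049 on, with means of 18.5 to 2932 CPM, the median shift was 0.94 in KO NPC, 0.80 in HET NPC, 0.86 in KO ESC and 0.77 in HET ESC. The interquartile ranges of their log2 fold changes were 0.46, 0.26, 0.44 and 0.45 in that order. Other transcripts within the same limits of abundance had interquartile ranges of 0.58, 0.41, 0.60 and 0.43. The middle 51, at 5.05 to 17.8 CPM, were shifted by 1.04, 0.71, 0.91 and 0.84, more than the most abundant except in HET NPC. Their interquartile ranges were 0.63, 0.54, 1.21 and 0.94. The 51 least abundant measured members, at 2.01 to 5.03 CPM, were shifted by 0.66, 0.62, 0.73 and 0.71 and spread more widely, with interquartile ranges of 1.26, 1.06, 1.52 and 1.39. Other transcripts of that level had 1.04, 0.96, 1.19 and 1.01.

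**Figure D4:**
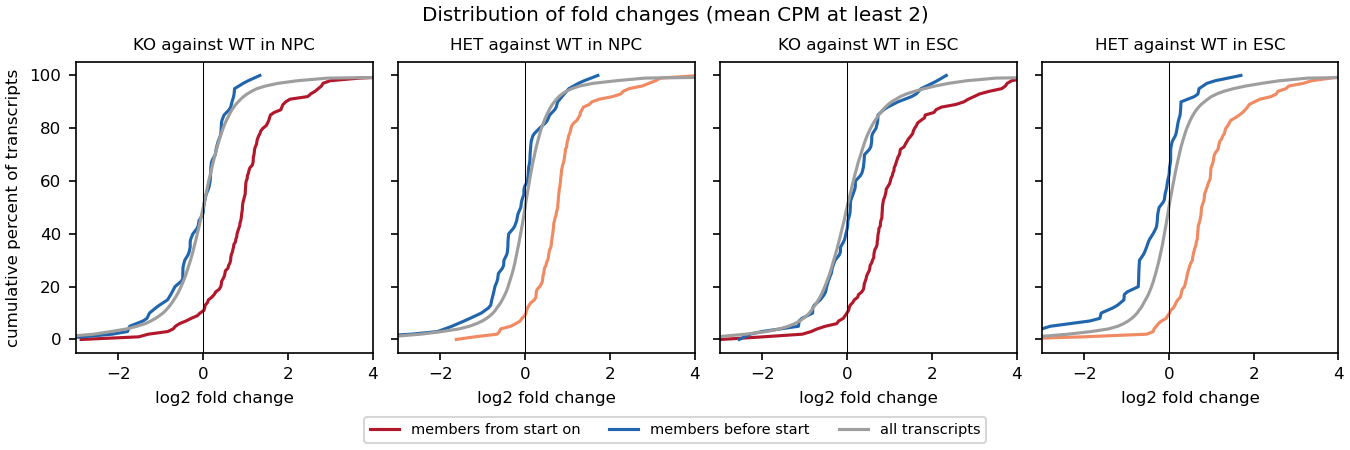
Cumulative percent of transcripts by log2 fold change in CPM, for the 155 measured members from row 11049 on (red for KO, orange for HET), the 41 before it and all 19921 transcripts of at least 2 CPM. At 50 percent the curve of members from row 11049 on lies at 0.92 in KO NPC, 0.77 in HET NPC, 0.83 in KO ESC and 0.77 in HET ESC, and that of all transcripts lies at 0.

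Members below 2 CPM also differed by row. The libraries are those that chose the stretch and placed row 11049, so the sums are a description. From row 11049 on, 371 such members, 256 of them with counts, summed to 138 and 141 CPM in KO NPC, 116 and 109 CPM in HET NPC, and 66.9 and 73.3 CPM in WT NPC. In ESC they summed to 125 and 122 CPM in KO, 94.3 and 106 CPM in HET, and 51.9 and 57.4 CPM in WT. The ratios to WT were 1.99 in KO NPC, 1.61 in HET NPC, 2.26 in KO ESC and 1.83 in HET ESC. The 210 low members before that row had ratios of 0.866, 0.696, 1.01 and 0.902.

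A group of 6 measured members, successive once the left-out transcripts are skipped, stood far above the level of the stretch. They lie between rows 11318 and 11375, were picked after their values had been seen, and had means over the 4 comparisons of 2.5 to 3.4. These rows hold 55 members, and those outside the group are below 2 CPM. Within the group, uc007pbd.2 and uc011ytv.1 averaged only 2.01 and 2.46 CPM over the 12 libraries. That limit counts the mutant libraries, so it favours members that are high in them. The lowest values of the 6 were 1.90 in KO NPC, 1.75 in HET NPC, 2.70 in KO ESC and 1.88 in HET ESC. Without them the other 149 measured members from row 11049 on had medians of 0.91, 0.74, 0.83 and 0.76 in that order. The 4 transcripts left out of the stretch, uc007pap.2, uc007pau.2, uc007pbc.2 and uc011ysu.1, lie in rows 11316 to 11347, in and beside this group. They averaged 22.8 to 60.8 CPM in KO NPC, 27.7 to 49.7 CPM in HET NPC and 3.26 to 7.06 CPM in WT NPC, and 27.2 to 102 CPM in KO ESC, 19.7 to 62.4 CPM in HET ESC and 1.82 to 7.16 CPM in WT ESC.

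Among the 90 members of at least 10 CPM, the one with the highest median over the 4 comparisons was uc011ysp.1, a transcript of 3248 bases in row 11340. It had 12.7 and 19.4 CPM in KO NPC, 25.4 and 17.1 CPM in HET NPC, and 1.54 and 3.07 CPM in WT NPC. In ESC it had 26.4 and 31.9 CPM in KO, 17.2 and 13.8 CPM in HET, and 0.830 and 1.96 CPM in WT. No mutant library overlapped WT, and the fitted log2 fold change of KO against WT in ESC was 4.36 (SE 0.52). The next of these 90, uc007pbb.2 in row 11346, had 20.1 and 31.5 CPM in KO NPC, 24.96 and 17.7 CPM in HET NPC, and 1.82 and 3.94 CPM in WT NPC. Its level in ESC was 44.3 and 59.3 CPM in KO, 26.6 and 30.8 CPM in HET, and 4.27 and 3.41 CPM in WT, again with no overlap. Its neighbour uc011yst.1, in row 11345, had the closest replicates of these members, with 11.1 and 10.3 CPM in KO NPC, 10.3 and 9.32 CPM in HET NPC, and 1.26 and 1.54 CPM in WT NPC. In ESC it had 15.6 and 13.6 CPM in KO, 7.73 and 8.38 CPM in HET, and 1.90 and 2.17 CPM in WT.

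Short members in and after these rows also had more counts in mutants, at very low depth. The 26 short members of rows 11348 to 11373 together had 21 and 24 counts in KO NPC, 14 and 24 in HET NPC, and 4 and 3 in WT NPC. They had 34 and 50 in KO ESC, 17 and 15 in HET ESC, and 1 and 1 in WT ESC. The 11 short members of rows 11381 to 11391 had 5 and 12 counts in KO NPC, 3 and 6 in HET NPC, and 2 and 0 in WT NPC, and 20 and 13 in KO ESC, 7 and 7 in HET ESC, and 0 in both WT ESC libraries. These sums rest on few reads per library, and single members of the runs were not compared.

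The most abundant member by deposited TPM was uc007pbq.1, of 2798 bases in row 11411, and its shift was close to that of the typical member. It had 2106 and 2110 CPM in KO NPC, 2064 and 1663 CPM in HET NPC, and 1056 and 1057 CPM in WT NPC. In ESC it had 4917 and 5060 CPM in KO, 4579 and 5128 CPM in HET, and 2803 and 2637 CPM in WT. The groups did not overlap, and the fitted log2 fold changes were 1.0 in KO NPC, 0.82 in HET NPC, 0.87 in KO ESC and 0.84 in HET ESC (SE 0.12 each). The member next in TPM, uc011yrk.1, is only 273 bases long and had a mean of 521 TPM over the 12 libraries. It had 45.3 and 50.5 CPM in KO NPC, 29.9 and 22.0 CPM in HET NPC, and 12.3 and 14.8 CPM in WT NPC. In ESC its libraries overlapped for HET, with 65.6 and 115 CPM in KO, 48.1 and 48.4 CPM in HET, and 49.3 and 25.02 CPM in WT.

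The members with the lowest medians over the 4 comparisons, among those of at least 10 CPM, both lie before row 11049. uc007ore.2, in row 11025, had 46.9 and 62.7 CPM in KO NPC, 59.0 and 32.4 CPM in HET NPC, and 70.1 and 78.5 CPM in WT NPC. In ESC it had 14.5 and 21.2 CPM in KO, 9.79 and 12.2 CPM in HET, and 18.9 and 16.9 CPM in WT, so KO overlapped WT there. uc007okh.1, in row 10844, had 8.18 and 21.01 CPM in KO NPC, 47.3 and 17.8 CPM in HET NPC, and 39.0 and 20.4 CPM in WT NPC. In ESC it had 69.5 and 66.8 CPM in KO, 65.3 and 62.4 CPM in HET, and 109 and 81.6 CPM in WT, so both mutants lay below WT there without overlap. The first and last members frame the stretch. uc007oit.1, in row 10798, averaged 70.3 ± 0.591 CPM in KO NPC, 68.0 ± 6.42 CPM in HET NPC and 62.7 ± 0.065 CPM in WT NPC (SD, n = 2 each), with fitted log2 fold changes of 0.16 and 0.12 (SE 0.17 each). Its ESC level was 113 and 101.3 CPM in KO, 89.5 and 75.7 CPM in HET, and 92.4 and 66.9 CPM in WT, so KO lay above WT there without overlap and HET did not. uc007phj.1, in row 11578, averaged 7.91 ± 0.604 CPM in KO NPC, 7.05 ± 0.909 CPM in HET NPC and 3.90 ± 0.127 CPM in WT NPC (SD, n = 2 each), with log2 fold changes of 1.02 and 0.85 (SE 0.29 each). The ESC libraries had 6.39 and 7.82 CPM in KO, 4.98 and 4.69 CPM in HET, and 1.54 and 2.07 CPM in WT.

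Of the 155 measured members from row 11049 on, 6 had a mean over the 4 comparisons below 0, singled out here after their values had been seen. uc007oue.1, in row 11116, was at -2.27 and uc007pdy.1, in row 11475, at -1.46. The other 4, uc007ozp.1, uc007pem.1, uc007pes.1 and uc007pfe.1, lay between -0.52 and -0.03, and 3 of them are in rows 11494 to 11514, the window where the shift was lower. Isoforms of a gene can exchange estimated counts, so single transcripts are less certain than the stretch.

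**Figure D5:**
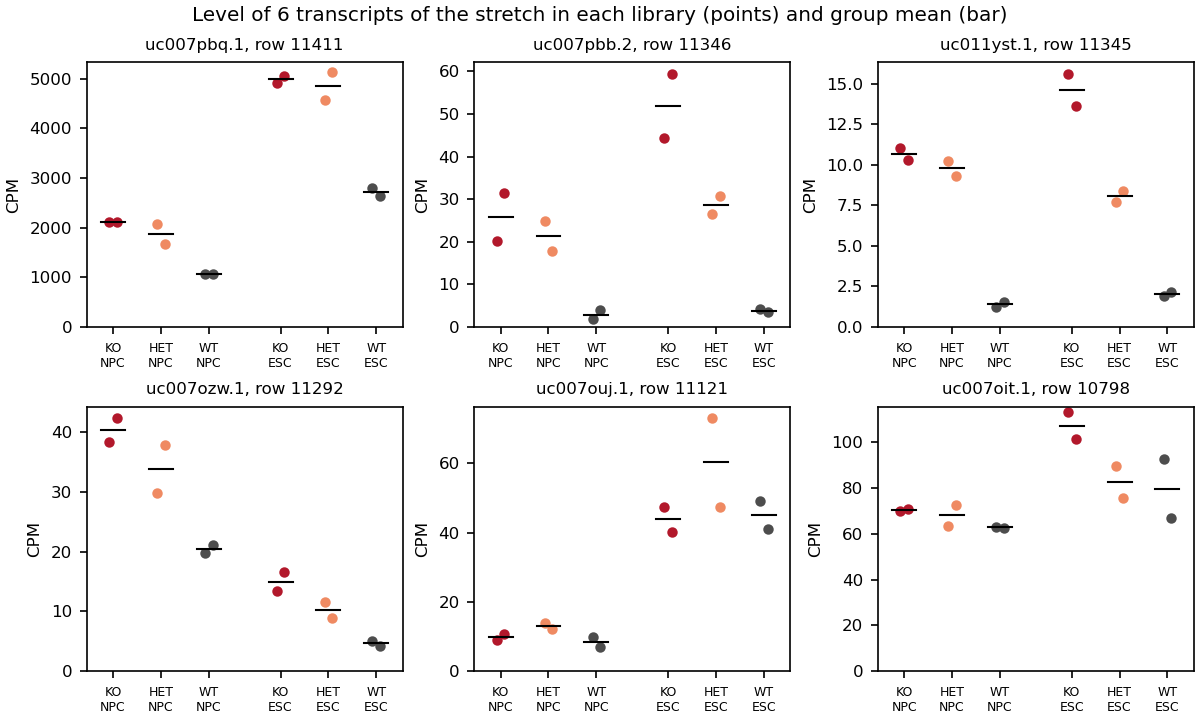
CPM of 6 members in each library, for KO, HET and WT in NPC and then in ESC; points are libraries and bars are group means. In the upper row, uc007pbq.1, uc007pbb.2 and uc011yst.1 have every mutant library above WT; uc007ozw.1 differs by cell type as well as genotype, uc007ouj.1 mainly by cell type, and uc007oit.1, the first member, little between genotypes in NPC.

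Few single members passed the edgeR quasi-likelihood test at an adjusted p under 0.05, and these counts are a description because the stretch was chosen on the same contrasts. Higher than WT were 6 members of 301 tested in KO NPC (0.0766% of all 30021 transcripts tested), 1 in HET NPC (0.00999%) and 27 in KO ESC (0.716%). None was lower in KO NPC (0.137%), in HET NPC (0%) or in KO ESC (0.49%), and in HET ESC edgeR called 0 members in either direction (0.0333%). DESeq2 called 80 members higher in KO NPC (3.67% of all transcripts), 54 in HET NPC (1.71%), 77 in KO ESC (5.03%) and 55 in HET ESC (2%). It called 2 lower in KO NPC (3.8%), 2 in HET NPC (1.48%), 1 in KO ESC (4.06%) and 0 in HET ESC (1.53%). Limma on log2(TPM + 1) called 11 higher in KO NPC (0.403%), 4 in HET NPC (0.05%), 14 in KO ESC (0.366%) and 1 in HET ESC (0.0366%), and 0 lower in any of them (1.04%, 0.06%, 0.376% and 0.0133% in the same order). At an unadjusted p under 0.05, members that were higher numbered 98 in KO NPC (5.85% of all transcripts), 79 in HET NPC (4.03%), 96 in KO ESC (7.87%) and 87 in HET ESC (4.85%). Members that were lower numbered 2 (6.8%), 3 (3.87%), 2 (6.42%) and 2 (3.82%) in the same order. All edgeR calls of a mutant against WT at an adjusted p under 0.05 lay from row 11049 on, where 241 members were tested. Of the 60 tested before it 0 were called, but that row was fitted on the same comparisons. Of the 6 called in KO NPC, 5 were among the 27 called in KO ESC, which is 83.3% of one list and 18.5% of the other. Leaving out WT ESC replicate 2 brought the count for KO ESC to 2, and leaving out KO ESC replicate 1 or 2 brought it to 0, while 22 were left when WT ESC replicate 1 was dropped. It was 4 to 10 without any one of the other libraries. The counts for KO NPC and HET NPC were at most 2 and 1 without any one library.

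Few members passed an adjusted threshold between KO and HET cells. The stretch was chosen as raised alike in both mutants, so these counts are a description. In NPC 0 members passed edgeR (0.00666% of all transcripts), while DESeq2 called 7 (2.43%) and limma 0 (0.02%). At an unadjusted edgeR p under 0.05, 14 members were higher in KO (4.65% of the tested members, 3.01% of all transcripts) and 3 lower (0.997% and 4.37%). In ESC 0 passed edgeR (0.00333% of all transcripts), DESeq2 called 9 (4.11%) and limma 0 (0.00999%). At an unadjusted edgeR p under 0.05, 21 were higher in KO there (6.98% of the tested members, 4.81% of all transcripts) and 5 lower (1.66% and 4.49%). In NPC the KO and HET libraries did not overlap in 60 measured members with KO higher (30.6%, against 22.8% of all transcripts). With KO lower there were 22 (11.2% against 21.5%). In ESC there were 67 with KO higher (34.2% against 23.9%) and 28 with KO lower (14.3% against 21.1%). Over the whole stretch, KO was thus higher more often, and lower less often, than over all transcripts in both cell types. In ESC KO was higher in 21 of the 41 measured members before the fitted start (51.2%) and lower in 5 (12.2%). From the start on it was higher in 46 of 155 (29.7%) and lower in 23 (14.8%). In NPC it was higher in 10 before the start (24.4%) and 50 from it on (32.3%). It was lower there in 3 (7.32%) and 19 (12.3%). The start was fitted with the same libraries, so this split is a description. The difference of the KO effect between NPC and ESC passed edgeR in 0 members (0.00333% of all transcripts), DESeq2 in 6 (3.35%) and limma in 0 (0.00666%). At an unadjusted edgeR p under 0.05 the effect was higher in NPC in 12 members (3.73%) and lower in 14 (5.43%). The same difference for HET passed edgeR in 0 (0.00333%), DESeq2 in 2 (0.879%) and limma in 0 (0.00333%), and unadjusted in 6 (2.3%) and 11 (2.92%). With 2 libraries a group, a p that misses the threshold does not show that the levels were alike.

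Differentiation, a contrast that the choice of the stretch did not use, changed members about as often as other transcripts. In WT cells 21 members were higher in NPC than in ESC (6.98% of the tested members, 6.83% of all transcripts) and 14 were lower (4.65% and 5.33%), by edgeR at an adjusted p under 0.05. HET cells had 17 members higher (5.65% and 6.3%) and 10 lower (3.32% and 5.16%). KO cells had 21 higher (6.98% and 6.59%) and 15 lower (4.98% and 6.42%). In all 3 genotypes, edgeR called 12 members higher (3.99% of the tested members, 3.7% of all transcripts) and 6 lower (1.99% and 2.75%). In either direction, DESeq2 called 61 members in KO (20.3% and 23.2%), 55 in HET (18.3% and 22.2%) and 64 in WT (21.3% and 21.9%), and limma 60 in KO (19.9% and 18.7%), 50 in HET (16.6% and 17.5%) and 53 in WT (17.6% and 20.9%). The median difference between NPC and ESC over measured members was 0.11 in KO, 0.16 in HET and 0.15 in WT, with interquartile ranges of 1.1, 0.99 and 1.2. Among all transcripts the interquartile ranges were 1.2, 1.1 and 1.2. The stretch thus held transcripts that moved in both directions between the cell types. The WT count of 35 was 20 without WT ESC replicate 1, 17 without WT NPC replicate 1 and 15 without WT NPC replicate 2. The HET count of 27 was 15 without either HET ESC library, 16 without HET NPC replicate 1 and 10 without the other HET NPC library. Of the 36 calls in KO, the number left was 9 and 12 without KO ESC replicate 1 or 2, and 9 and 11 without KO NPC replicate 1 or 2.

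Among members that rose with differentiation, uc007ozw.1 in row 11292 had 19.8 and 21.2 CPM in WT NPC, against 5.10 and 4.24 CPM in WT ESC (log2 fold change 2.13, SE 0.22, edgeR adjusted p = 0.00094). It showed the genotype shift as well, with 38.3 and 42.4 CPM in KO NPC, 29.8 and 37.9 CPM in HET NPC, 13.5 and 16.5 CPM in KO ESC and 11.5 and 8.97 CPM in HET ESC. uc007olc.2, in row 10865, had 9.86 and 15.2 CPM in WT NPC, against 2.49 and 3.41 CPM in WT ESC (edgeR adjusted p = 0.011), and leaving out WT ESC replicate 1 or WT NPC replicate 2 ended this call (edgeR adjusted p = 0.0633 and 0.0693). uc007ore.2 had 59.0 and 32.4 CPM in HET NPC, against 9.79 and 12.2 CPM in HET ESC (edgeR adjusted p = 0.00597), and missed the threshold without HET ESC replicate 1 (edgeR adjusted p = 0.0506). uc007okt.2, in row 10856, had 181 and 141 CPM in KO NPC, against 31.8 and 28.3 CPM in KO ESC (log2 fold change 2.42, SE 0.21, edgeR adjusted p = 0.000491). It passed in each of the 20 alternatives tried. uc007ozs.1, in row 11288, had 29.1 and 24.2 CPM in KO NPC, against 0.769 and 3.39 CPM in KO ESC (edgeR adjusted p = 0.0397), and 20.4 and 24.97 CPM in HET NPC, against 0.859 and 2.01 CPM in HET ESC (edgeR adjusted p = 0.0351). Its calls held in 3 and 4 of the 12 fits that left out a library, and ended without any one of the 4 libraries compared in KO or of those compared in HET.

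Among members that fell, uc007ouj.1 in row 11121 had 9.79 and 6.88 CPM in WT NPC, against 49.2 and 40.9 CPM in WT ESC (log2 fold change -2.43, SE 0.27, edgeR adjusted p = 0.00136). In mutants it had 8.88 and 10.7 CPM in KO NPC, 13.8 and 12.3 CPM in HET NPC, 47.5 and 40.3 CPM in KO ESC and 73.1 and 47.5 CPM in HET ESC. HET NPC lay above WT NPC without overlap, and the other 3 mutant groups overlapped WT. uc007oyd.2, in row 11240, had 0.188 and 0 CPM in HET NPC, against 13.1 and 8.46 CPM in HET ESC (edgeR adjusted p = 0.011), and no counts in KO NPC or WT NPC. uc007pbv.1, in row 11416, had 1.60 and 1.91 CPM in KO NPC, against 9.08 and 12.1 CPM in KO ESC (edgeR adjusted p = 0.0101), and lost the call without KO ESC replicate 2 or either KO NPC library (edgeR adjusted p = 0.0606 to 0.0886). The calls of uc011yrk.1 in WT, uc007pff.1 in HET and uc007okh.1 in KO were near the threshold (edgeR adjusted p = 0.0379, 0.0409 and 0.0394), and held in 3, 5 and 3 of the 12 fits that left out a library.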

How the data were processed

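RNA of 12 libraries was measured as transcript abundance. Per the labels' protocols the libraries are stranded and come from total RNA depleted of ribosomal RNA, and the submitters' processing notes name cutadapt 1.16, kallisto and the build mm9. Per the file headers, the deposited tables give an estimated count (expected count, not whole) and a TPM value, with a length, for each transcript. Kallisto shares reads among similar transcripts, so isoforms can exchange counts. For kallisto, the sources used here give no version.

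Members were taken by row order. Sets of transcripts identical to 2 decimals in every library, with at least 10 counts in all, were merged (252 transcripts in 99 sets, 0 of them members). Counts were rounded and fitted with edgeR 4.0.16 (R 4.3.3, filterByExpr with a minimum count of 10, TMM, robust quasi-likelihood fit, 1 mean per group over all libraries), two-sided, with Benjamini-Hochberg adjustment over 30021 transcripts in each of 11 comparisons. The common dispersion was 0.350, a biological coefficient of variation of 0.592, and 6 residual degrees of freedom were left. Standard errors were derived from the F statistic and the log2 fold change. The fit was tested on simulated data. Median shifts are described in the text and carry no test. A least-absolute-deviation step fit gave the limits along the rows.

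DESeq2 1.42.0, limma 3.58.1 on log2(TPM + 1), RLE scaling, other filters, only the compared groups, a replicate block and leaving out each library were alternatives. Libraries with the same number were not paired: their deviations correlated at -0.08 to 0.08 over 15 pairs of groups. The members, the lists and the tests were chosen with earlier results of these data known. Transcripts were named by a rule on adjusted p, a mean of at least 5 CPM and no overlap, with at most 2 rises and 2 falls per comparison, together with the extremes of the 4 mutant comparisons, the highest TPM and both ends of the stretch. Exceptions are stated in the text. Marker genes were not used because identifiers could not be matched.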

Additional observations from a re-analysis of the deposited data

Results flagged for a closer look

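Before row 11049, the median shift of the 41 measured members lay on opposite sides of WT in 2 pairs of groups. Taken in each library against the WT mean, it was below WT in both KO NPC libraries and above WT in both KO ESC libraries, a difference of -0.15 between the means of the library values on the log2 scale. The median of the differences between group means, 0.01 in KO NPC and 0.08 in KO ESC, did not lie on opposite sides. In ESC the library values were above WT in both KO libraries and below WT in both HET libraries, a difference of 0.29. Neither difference was tested.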

How the results depend on the processing

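Counts of called members depended on the tool and filter. DESeq2 called 82 members in KO NPC (7.46% of all transcripts), 56 in HET NPC (3.19%), 78 in KO ESC (9.09%) and 55 in HET ESC (3.52%) against WT, 7 and 9 for KO against HET in NPC and ESC, 61, 55 and 64 between cell types in KO, HET and WT, and 6 and 2 for the KO and HET interactions. Limma called 11, 4, 14 and 1 against WT in the same order and 60, 50 and 53 between cell types. Without the low-count filter, 16 were called in KO ESC, of 214 over all transcripts, and 0 in HET NPC, of 2. At a mean of at least 10 CPM, 38 were called in KO NPC, of 486 over all 10459 transcripts tested, and 0 in HET NPC, of 7. There were 38 in KO ESC, of 885, and 3 in HET ESC, of 23. With only the compared groups in the fit, 0 were called in KO NPC, HET NPC and KO ESC, where 0 were called over all transcripts. Between cell types 19, 10 and 6 were called in KO, HET and WT, of 2468, 1210 and 913 over all transcripts. With a replicate block, whose numbers do not pair the libraries, KO ESC had 4 calls, of 53 over all transcripts. Both NPC comparisons with WT had 0, of 3 in KO and 0 in HET over all transcripts. Leaving out 1 library gave 0 to 2 in KO NPC, 0 to 1 in HET NPC, 0 to 22 in KO ESC and 0 to 1 in HET ESC, and 9 to 36, 10 to 26 and 15 to 31 between cell types in KO, HET and WT.

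No median shift over the measured members of the whole stretch changed sign in the alternatives given here. With log2(TPM + 1) it was 0.65 in KO NPC, 0.56 in HET NPC, 0.59 in KO ESC and 0.48 in HET ESC, and 0.0765, 0.0768 and 0.0651 between cell types in KO, HET and WT. From row 11049 on it was 0.92, 0.77, 0.83 and 0.77 against WT and 0.19 between cell types in KO. Selection in WT libraries gave 0.62 in HET ESC and 0.16 between cell types in KO. Uncentred TMM gave 0.78 in KO ESC and 0.0747 between cell types in KO. At 10 CPM it was 0.87 in KO NPC, and 0.17 and 0.0264 between cell types in KO and WT. Leaving out 1 library of a comparison gave 0.71 to 0.84 in KO NPC, 0.58 to 0.71 in HET NPC, 0.75 to 0.80 in KO ESC and 0.62 to 0.69 in HET ESC. It gave 0.10 to 0.16 and 0.0803 to 0.16 for KO against HET in NPC and ESC, and 0.0363 to 0.11, 0.11 to 0.21 and 0.0895 to 0.25 between cell types in KO, HET and WT. The 100 transcripts after the last member stood at 0.07, and at 0.16 with 50, 0.15 with 200 and 0.23 at 10 CPM. The causes were not tested. Depth limits the 316 members that were counted below 2 CPM.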
